A study of Mus musculus with 54 samples.

Results

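The immediate early genes Fos, Fosb, Jun, Junb, Egr1, Egr2, Egr3, Ier2, Nr4a1 and Dusp1 were described in the hearts and livers of mice with altered fidelity of mitochondrial translation. The genes were chosen by name, 10 of the 54356 genes in each of the tables of normalized counts, and all 10 had a mean of at least 10 normalized counts in both tissues and so were tested. The mice were C57BL/6, 20 weeks old and had eaten a high-fat diet of 19 MJ/kg, whose energy came to 42% from fat, to 35% from carbohydrate and to 23% from protein, and no group on another diet was analysed here. Wild-type mice (Mrps12+/+) were compared with mice homozygous for a point mutation of the mitoribosomal protein MRPS12 in every cell, either the error-prone Mrps12ep/ep or the hyper-accurate Mrps12ha/ha. Each group held 3 mice, matched with the others for age and litter, and RNA was taken from the whole organ. The reads of 3 technical libraries of each mouse were pooled into 1 column. The mice are numbered as in the labels, and whether the heart and liver with 1 number came from 1 mouse is not given there.

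Immediate early genes are transcribed within minutes of a stimulus, without new protein synthesis, from promoters that already hold factors such as SRF with its ternary complex partners and CREB. Growth factors, hormones, stretch, ischaemia and handling of the tissue all induce them, and their mRNAs decay quickly. Fos, Fosb, Jun and Junb encode subunits of the AP-1 transcription factor. Egr1, Egr2 and Egr3 encode zinc finger transcription factors, Nr4a1 an orphan nuclear receptor, Ier2 a nuclear protein, and Dusp1 a phosphatase that inactivates the kinases p38, JNK and ERK. In the heart they respond to load and adrenergic drive, and in the liver to feeding, glucagon, cytokines and injury.

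The genes lie on 9 chromosomes (GRCm38, GENCODE vM21). Junb (chr8:84974484-84978718) and Ier2 (chr8:84661331-84662852) share a chromosome. Fosb, at chr7:19302696-19310051, lies 9.43 Mb from Mrps12 itself. Jun (chr4:95049034-95052222), Junb and Ier2 have a single exon, and the main transcript of Nr4a1 (chr15:101254269-101274795) has 8. For Dusp1 the annotated gene (chr17:26505590-26562128) runs past its main transcript, which ends with 4 exons at chr17:26505590-26508519. Fos (chr12:85473890-85477273), Egr2 (chr10:67535475-67542188) and Egr3 (chr14:70077203-70082614) lie on chromosomes of their own, and Egr1 is placed where its values are given.

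Promoter windows of 300 bases, from 250 before to 50 after the RefSeq start site (GRCm38.p6), were at hand for 7 of the 10 genes, all but Egr1, Egr3 and Ier2. The window of Nr4a1 belongs to a start site at chr15:101266846, not to the start of its main transcript at chr15:101254269. Shown are the windows of Fos and Fosb, which were higher in the same hearts, and of Jun, Nr4a1 and Dusp1, which with Fos were lower in the livers of all Mrps12ha/ha mice. Capitals mark the letters TGACG (the core of the cyclic AMP response element, on either strand, so also CGTCA), the whole element TGACGTCA and the TATA box TATAAA on the gene's strand.
Fos, chr12:85473640-85473939, plus strand: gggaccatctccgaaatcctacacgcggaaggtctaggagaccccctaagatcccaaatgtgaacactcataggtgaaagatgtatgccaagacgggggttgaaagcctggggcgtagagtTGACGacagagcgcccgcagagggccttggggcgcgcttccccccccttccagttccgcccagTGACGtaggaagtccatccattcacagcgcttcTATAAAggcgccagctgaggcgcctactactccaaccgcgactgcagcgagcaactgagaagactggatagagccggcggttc
Fosb, chr7:19309996-19310295, minus strand: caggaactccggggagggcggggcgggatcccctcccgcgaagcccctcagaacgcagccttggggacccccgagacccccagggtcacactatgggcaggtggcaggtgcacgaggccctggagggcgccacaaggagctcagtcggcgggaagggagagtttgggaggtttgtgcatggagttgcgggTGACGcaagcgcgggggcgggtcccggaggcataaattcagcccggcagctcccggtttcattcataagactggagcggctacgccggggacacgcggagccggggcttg
Jun, chr4:95052173-95052472, minus strand: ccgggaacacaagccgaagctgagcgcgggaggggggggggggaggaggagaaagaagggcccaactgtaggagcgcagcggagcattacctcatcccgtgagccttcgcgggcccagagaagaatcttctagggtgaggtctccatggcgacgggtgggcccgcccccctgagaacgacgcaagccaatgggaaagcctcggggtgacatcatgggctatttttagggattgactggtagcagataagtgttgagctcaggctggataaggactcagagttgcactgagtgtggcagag
Nr4a1, chr15:101266596-101266895, plus strand: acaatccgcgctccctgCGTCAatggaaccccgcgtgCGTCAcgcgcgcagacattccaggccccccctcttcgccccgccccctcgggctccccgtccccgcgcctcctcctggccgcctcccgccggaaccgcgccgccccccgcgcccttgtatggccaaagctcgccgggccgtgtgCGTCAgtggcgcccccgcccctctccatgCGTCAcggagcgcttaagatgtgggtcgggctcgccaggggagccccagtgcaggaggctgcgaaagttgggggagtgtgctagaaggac
Dusp1, chr17:26508423-26508722, minus strand: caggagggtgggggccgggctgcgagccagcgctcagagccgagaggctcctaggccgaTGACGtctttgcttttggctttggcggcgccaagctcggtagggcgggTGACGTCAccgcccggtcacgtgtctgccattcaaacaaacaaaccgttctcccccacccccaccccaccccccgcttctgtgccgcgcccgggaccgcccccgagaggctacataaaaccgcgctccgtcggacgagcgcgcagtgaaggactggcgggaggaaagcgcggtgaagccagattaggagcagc
The core TGACG was found in 6 of the 7 windows, against 21% of the windows of 27025 genes. It occurred in Fos, Fosb, Junb, Egr2, Nr4a1 and Dusp1, and the window of Jun held none of the motifs searched. Dusp1 held the whole element TGACGTCA, within which both copies of the core overlap, at -143 to -136 from the start site, a match found in 1.88% of windows. The TATA box was found in 2 windows (8.88% of all), in Fos at -33 to -28 and in Junb at its RefSeq start site, which lies 30 bases before the GENCODE one. The CArG box bound by SRF was found in 1 window, that of Egr2 at -72 to -63 (1.57% of all), and the AP-1 site TGANTCA in 0 of the 7 (7.93% of all). These matches are letters in a short window and no binding was measured.

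In the 18 columns, 11202864 to 51480512 reads per heart and 21238166 to 81518015 per liver fell on genes. Hearts held the cardiomyocyte transcripts of a 6-gene list (summed 1810725 to 3106039 normalized counts, against 39.0 to 6612 in liver) and livers those of a 6-gene hepatocyte list (4544762 to 6032402, against 113 to 14053 in heart). The heart of Mrps12ha/ha mouse 2 was the shallowest. The counts do not hold the mutated bases, so the genotypes could not be checked in them. In whole organs, fewer cells of a type and less RNA per cell cannot be told apart.

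**Figure D1:**
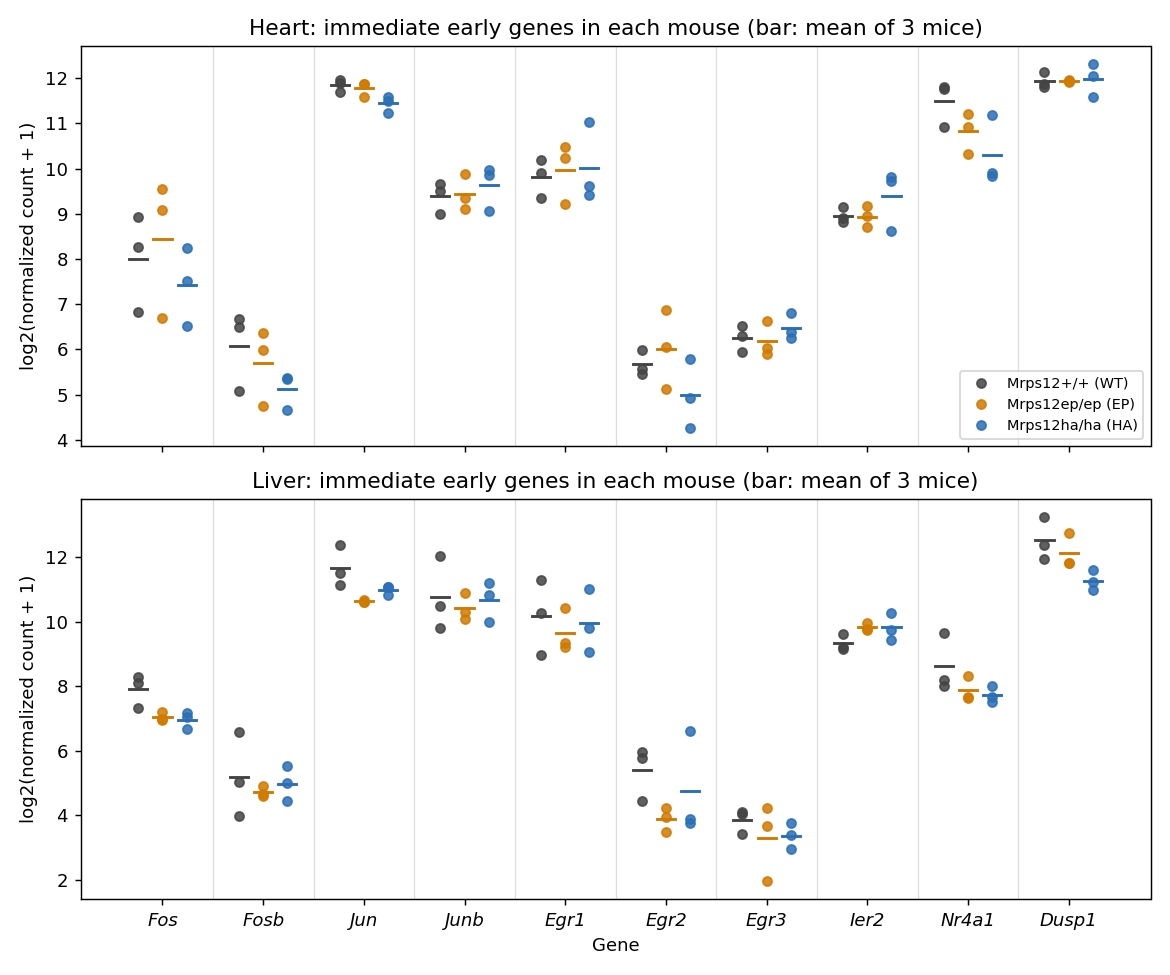
Normalized counts of the 10 immediate early genes, as log2(normalized count + 1) on the y axis, in each heart (upper panel) and liver (lower panel), with 3 mice per genotype as points and their mean as a bar. Jun and Dusp1 were the most even genes in the hearts, and the wild-type livers spread widely for most genes.

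Levels can be compared between the genes per kilobase of the main transcript. In wild-type hearts the phosphatase gene Dusp1 was the most abundant, with 60.8 ± 8.41 RPKM (reads per kilobase, scaled to the reads on genes; SD, n = 3). Nr4a1 (36.1 ± 11.4) and Jun (35.5 ± 3.07) followed below its range and overlapped each other. Junb (11.6 ± 2.78) overlapped Ier2 (10.1 ± 1.36), and Egr1 (6.37 ± 1.87) overlapped Fos (4.42 ± 2.78). The lowest were Fosb (0.606 ± 0.302), Egr3 (0.596 ± 0.124) and Egr2 (0.526 ± 0.113), each of which overlapped its neighbour. The order thus had gaps only below Dusp1, Jun, Ier2 and Fos.

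Wild-type livers had a like order with more spread. Dusp1 (65.2 ± 34.5 RPKM, SD, n = 3), Junb (23.5 ± 18.1) and Jun (21.5 ± 8.49) overlapped in turn. Ier2 (8.60 ± 2.00), Egr1 (6.41 ± 4.90), Nr4a1 (3.62 ± 2.65) and Fos (2.36 ± 0.805) formed the next overlapping run. Below them lay Egr2 (0.303 ± 0.140), Fosb (0.240 ± 0.205) and Egr3 (0.0702 ± 0.0206). Between the tissues Nr4a1 had the widest gap, 36.1 RPKM in the heart against 3.62 in the liver, which was not tested because the tissues were normalized apart.

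The genes varied more between mice of a genotype than most genes did. The pooled SD within genotypes of log2(normalized count + 1) was 0.504 for the median member in the heart and 0.669 in the liver, against 0.269 and 0.250 for the median of all genes tested. It exceeded that all-gene median for 8 of the 10 members in the heart and for 10 of 10 in the liver. Fos was the most variable member in the heart (SD 1.19) and Jun the least (0.163). In the liver Egr2 was the most variable (1.07) and Ier2 the least (0.291).

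Single mice stood out. In the heart, Mrps12ha/ha mouse 1 was the highest of the 9 mice for 5 of the 10 genes, and Mrps12ha/ha mouse 2, the shallowest library, was the lowest for 5. In the liver, wild-type mouse 1 was the highest for 4 genes and wild-type mouse 3 for 3, while wild-type mouse 2 was the lowest for 3. The 3 genotypes of a tissue shared 1 estimate of the spread. The differing wild-type livers thus widen the error of every liver comparison, also of that between the mutants.

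**Figure D2:**
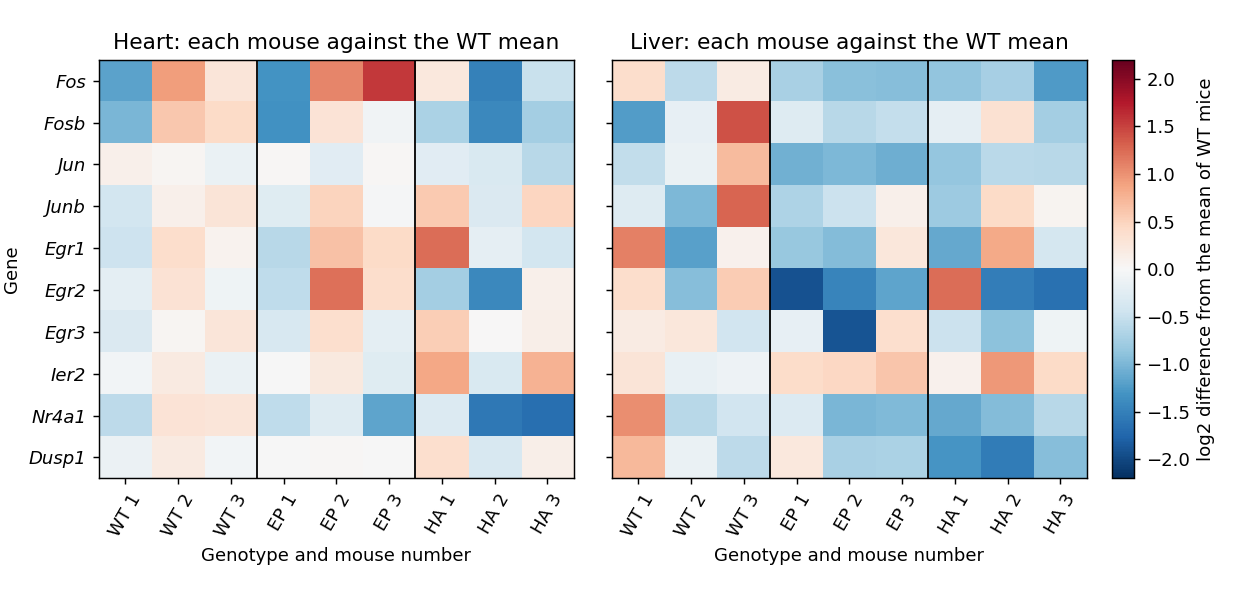
Each heart (left) and liver (right) against the mean of the 3 wild-type mice, as the difference in log2(normalized count + 1), with genes in rows and mice in columns grouped by genotype. Fos and Fosb lay on the same side of that mean in most hearts. Mrps12ha/ha heart 1 (302 and 40.5 normalized counts) and Mrps12ep/ep heart 3 (749 and 62.7) were above it for Fos and below it for Fosb, the latter heart slightly. Wild-type livers 1 and 3 were high for different genes.

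In the heart, Mrps12ha/ha mice had lower Jun than wild-type mice, without overlap, and lower Nr4a1, but neither passed the test after adjustment. The comparison asks how hyper-accurate translation in mitochondria bears on the heart under a high-fat diet. With limma and Benjamini-Hochberg adjustment over 16057 genes, 5 genes had an adjusted p under 0.05 (0.0311% of those tested), and 0 of the 10 members did. At an unadjusted p under 0.05, 0 members were higher (9.64% of all genes) and 2 were lower (10.1%). One member did not overlap, 1 lower (10.0% of all genes) and 0 higher (11.1%), so these counts were near the background. The median difference of the members was -0.18 on the log2 scale (all genes: -0.02), and from -0.39 to 0.062 with 1 mouse left out.

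Jun measured 3955, 3776 and 3297 normalized counts in wild-type hearts 1 to 3 and 3076, 2890 and 2405 in Mrps12ha/ha hearts. All of the latter lay below all of the former. The log2 difference was -0.40 ± 0.14 (standard error; adjusted p = 0.213, limma), and its adjusted p ranged from 0.0120 to 0.540 over 18 alternatives. Nr4a1 measured 1929, 3558 and 3463 in wild-type hearts and 2336, 960 and 906 in Mrps12ha/ha hearts. Mrps12ha/ha mouse 1 exceeded wild-type mouse 1, so the groups overlapped, with a log2 difference of -1.18 ± 0.39 (adjusted p = 0.213, limma).

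The other AP-1 genes were spread over a wide range. Fos measured 112, 485 and 306 normalized counts in wild-type hearts and 302, 90.6 and 181 in Mrps12ha/ha hearts. These overlapped, with a log2 difference of -0.58 ± 0.79 (adjusted p = 0.677, limma), which ran from -1.17 to -0.12 with 1 mouse left out. Fosb measured 32.7, 100 and 89.3 in wild-type and 40.5, 24.2 and 39.4 in Mrps12ha/ha hearts (log2 difference -0.96 ± 0.53, adjusted p = 0.317, limma, and -1.46 to -0.66 with 1 mouse left out). Junb lay between 507 and 812 in wild-type and between 535 and 999 in Mrps12ha/ha hearts.

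Of the zinc finger genes, Egr2 had few reads, as low as 6 in the heart of Mrps12ha/ha mouse 2. It measured 43.1, 62.3 and 46.5 normalized counts in wild-type hearts and 29.5, 18.1 and 53.9 in Mrps12ha/ha hearts (log2 difference -0.68 ± 0.50, adjusted p = 0.432, limma, and -1.08 to -0.32 with 1 mouse left out). Egr1 (chr18:34859823-34864984) lay between 655 and 1174 in wild-type and between 676 and 2100 in Mrps12ha/ha hearts, and Egr3 between 60.3 and 90.6 against 75.5 to 110. Both pairs of groups overlapped. Dusp1 (3560 to 4487 against 3059 to 5071) had a log2 difference of 0.05.

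Ier2 turned on 1 mouse. It measured 478, 568 and 448 normalized counts in wild-type hearts and 898, 393 and 842 in Mrps12ha/ha hearts. Mouse 2 was the lowest of all and mice 1 and 3 the highest (log2 difference 0.43 ± 0.29, adjusted p = 0.40, limma). Without Mrps12ha/ha mouse 2 the difference was 0.81 (adjusted p = 0.0103, limma, against 0.0103 to 0.777 over all alternatives), but 27% of all genes were then called, against 1 of the 10 members. Library weights were estimated from how far each column lay from its own genotype in these same values. They are thus not independent of the fit without Mrps12ha/ha mouse 2. They gave that heart 0.167, the lowest of the 9, and Mrps12ep/ep heart 3 the highest, 4.93. With these weights Jun, Nr4a1 and Ier2 were called (adjusted p = 0.0120, 0.0138 and 0.0173, limma), with 34.7% of all genes.

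In Mrps12ep/ep hearts the differences of the immediate early genes from wild type had both signs. They lay between -0.67 and 0.44 on the log2 scale, with standard errors up to 0.79. Only 1 of the 10, Nr4a1, kept its sign over the alternatives. No gene at all was called (0.0%), so 0 of 10 members were, and 0 members had an unadjusted p under 0.05, either higher (1.05% of all genes) or lower (0.635%). Likewise 0 members were without overlap, higher (4.4%) or lower (3.64%). The members' median difference was -0.01 on the log2 scale (all genes: -0.01). The lowest was Nr4a1, which measured 1948, 2370 and 1282 normalized counts (log2 difference -0.67 ± 0.39, adjusted p = 1.0, limma). The highest was Fos, with 102, 541 and 749 (log2 difference 0.44 ± 0.79, adjusted p = 1.0, limma), and its sign turned when wild-type mouse 1 (-0.155) or Mrps12ep/ep mouse 3 (-0.118) was left out.

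Between the mutant hearts, Egr2 (33.7, 117 and 65.4 normalized counts in Mrps12ep/ep) had a log2 difference, Mrps12ha/ha less Mrps12ep/ep, of -1.03 ± 0.50 (adjusted p = 0.302, limma). Fos had a like difference of -1.02 ± 0.79 (adjusted p = 0.480, limma). Jun (3740, 3074 and 3735 in Mrps12ep/ep) differed by -0.34 ± 0.14 (adjusted p = 0.260, limma), and 1 Mrps12ha/ha heart exceeded the lowest Mrps12ep/ep heart by under 2 counts. Ier2 differed by 0.45 ± 0.29 (adjusted p = 0.407, limma). In this comparison 0 of 10 members were called (0.0249% of all genes), and 0 were without overlap, higher (8.77%) or lower (7.82%). At an unadjusted p under 0.05, 1 member was lower (8.86%) and 0 higher (9.07%). Without Mrps12ha/ha mouse 2, 1 member was called (23.2% of all genes), and with library weights 2 were (39.3%), all of them Ier2 or Jun.

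**Figure D3:**
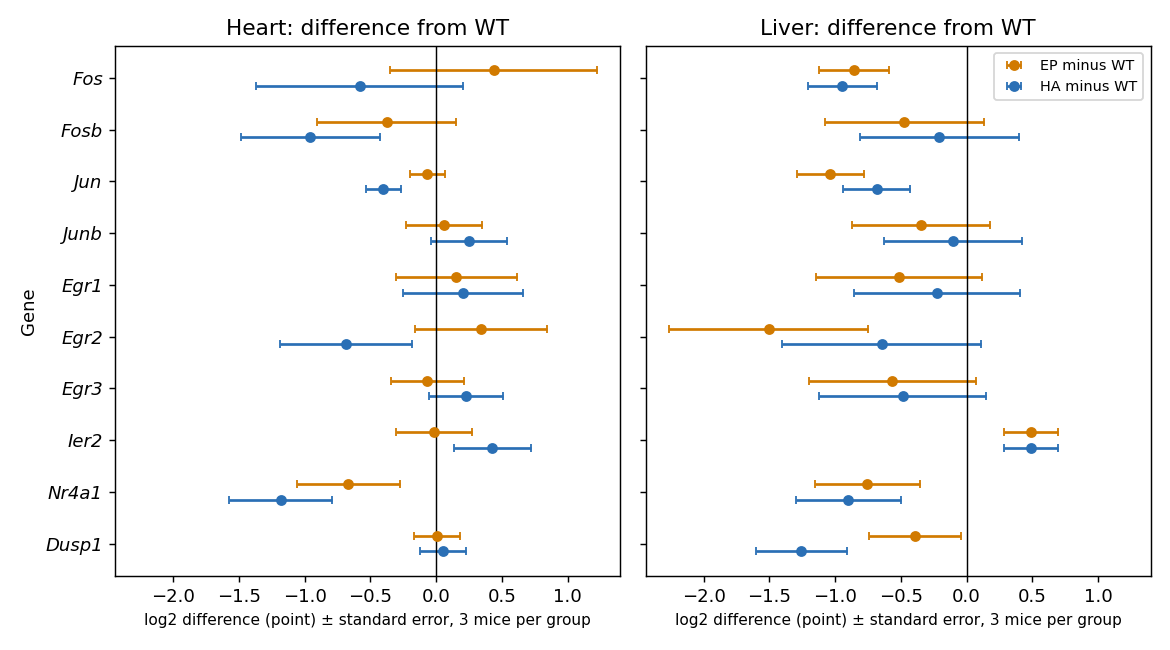
Differences of Mrps12ep/ep (EP) and Mrps12ha/ha (HA) from wild type (WT) for each gene in heart and liver, on the log2(normalized count + 1) scale, with standard errors as bars and 3 mice per group. In the liver 9 of the 10 genes lay below 0 in both mutants, which share the same wild-type mice, and Ier2 lay above. But Fosb and Junb lay above 0 in both without wild-type mouse 3, and Egr1 did so without wild-type mouse 1.

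Fos and Fosb were higher in the hearts with more atrial RNA, which also held more of 3 other kinds of transcript. A summed list of 6 atrial transcripts, among them Nppa, Myl7, Sln and Bmp10, was between 95587 and 385977 normalized counts in 4 hearts (wild-type and Mrps12ep/ep mice 2 and 3). It was between 2370 and 11518 in the other 5, wild-type mouse 1, Mrps12ep/ep mouse 1 and all Mrps12ha/ha mice. Fos was between 306 and 749 in the former and between 90.6 and 302 in the latter. Fosb was between 62.7 and 100 in the former and between 24.2 and 40.5 in the latter. Neither gene overlapped between these hearts, Fos by a small margin (306.3 against 301.9), and 8 of the 10 members did overlap. The same 4 and 5 hearts were apart for the lists of mesothelium (1153 to 2836 against 306 to 853), fibroblast (36804 to 67424 against 33780 to 36781) and adipocyte transcripts (64.4 to 15080 against 8.0 to 63.4), the latter 2 by a small margin. Of all genes tested, 5.13% were higher without overlap in the hearts with more atrial RNA. Among the hearts with little of it, wild-type mouse 1 and Mrps12ep/ep mouse 1 had 112 and 102 counts of Fos, within the range of the Mrps12ha/ha hearts. The part of any of these transcripts in the differences of Fos and Fosb was not tested, and in the Mrps12ha/ha hearts it cannot be told apart from the genotype. Between Mrps12ha/ha and wild-type hearts, mesothelium (306 to 512 against 853 to 1748) and fibroblast transcripts (33780 to 34882 against 36781 to 48080) did not overlap. Erythroid transcripts (199245 to 1411965, against 91865 to 235641) did overlap, and the part of these lists was not tested.

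**Figure D4:**
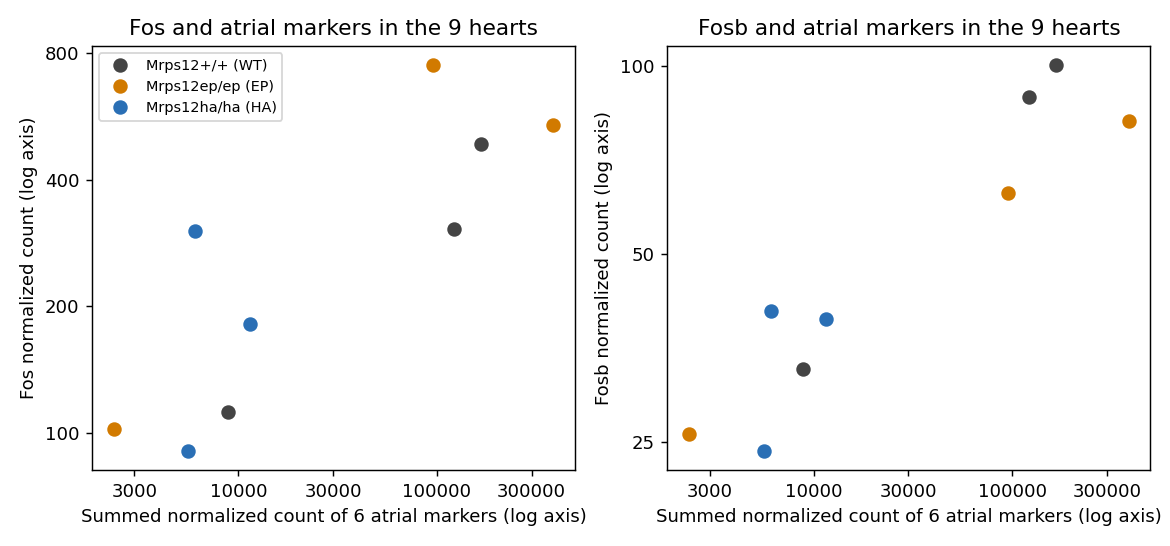
Fos (left) and Fosb (right) normalized counts against the summed normalized count of 6 atrial transcripts in the 9 hearts, both axes logarithmic, coloured by genotype. The 4 hearts with the most atrial RNA, from wild-type and Mrps12ep/ep mice, held the 4 highest values of both genes.

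In the liver, Fos, Jun, Nr4a1 and Dusp1 were lower in every Mrps12ha/ha mouse than in every wild-type mouse, and Ier2 had the opposite sign. None passed the test after adjustment over 15314 genes, where 1 gene was called (0.00653%), and 0 of 10 members. At an unadjusted p under 0.05, 3 members were lower (7.05% of all genes) and 1 was higher (7.07%). Without overlap, 4 members were lower (9.81% of all genes) and 0 higher (10.0%). The median difference of the members was -0.57 on the log2 scale (all genes: -0.02), and from -0.79 to -0.35 with 1 mouse left out. Of the 10 members 9 lay below 0, but only 7 kept their sign over the alternatives that tested them, all but Fosb, Junb and Egr1.

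Dusp1, which ends MAP kinase signals, had the lowest value. It measured 9799, 5409 and 3998 normalized counts in wild-type livers 1 to 3 and 2418, 2052 and 3121 in Mrps12ha/ha livers. The lowest wild-type liver thus exceeded the highest Mrps12ha/ha liver (log2 difference -1.26 ± 0.35, adjusted p = 0.184, limma). Fos measured 314, 162 and 272 in wild-type and 131, 145 and 101 in Mrps12ha/ha livers. These did not overlap either (log2 difference -0.95 ± 0.26, adjusted p = 0.186, limma), with an adjusted p between 0.0587 and 0.428 in the alternatives.

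Jun measured 2258, 2946 and 5301 normalized counts in wild-type and 1809, 2175 and 2155 in Mrps12ha/ha livers. The groups were apart by a small margin, with wild-type mouse 3 far above the rest (log2 difference -0.69 ± 0.26, adjusted p = 0.286, limma). Without that mouse the difference was -0.34. Nr4a1 measured 809, 259 and 295 in wild-type and 181, 203 and 258 in Mrps12ha/ha livers. These groups were barely apart, at 257.9 in Mrps12ha/ha mouse 3 against 258.8 in wild-type mouse 2. The wild-type mean of Nr4a1 rested on mouse 1 (log2 difference -0.90 ± 0.40, adjusted p = 0.356, limma), and without that mouse the difference was -0.38. Ier2 measured 788, 577 and 596 in wild-type and 695, 1248 and 866 in Mrps12ha/ha livers, with an overlap of 1 mouse (log2 difference 0.49 ± 0.21, adjusted p = 0.336, limma).

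The remaining members overlapped. Junb lay between 890 and 4258 normalized counts in wild-type and between 1016 and 2357 in Mrps12ha/ha livers, and Egr1 between 506 and 2514 against 533 to 2072. Fosb lay between 14.7 and 95.4 in wild-type livers and between 20.8 and 45.0 in Mrps12ha/ha livers. Egr2 was 12.5 and 13.7 in 2 Mrps12ha/ha livers and 97.6 in mouse 1, the highest of all livers. Egr3 was at 2.9 to 17.8 in all livers, from 4 to 22 reads, and its differences carried a standard error of 0.64.

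Mrps12ep/ep livers had lower Fos, Jun and Egr2 and higher Ier2 than wild-type livers, without overlap, and again none of them passed the test (1 gene in all called, 0.00653%, and 0 of 10 members). At an unadjusted p under 0.05, 2 members were lower (5.12% of all genes) and 1 higher (4.62%). Without overlap, 3 members were lower (6.28% of all genes) and 1 higher (6.49%). The members' median difference was -0.54 on the log2 scale (all genes: -0.01), and it reached -0.95 without wild-type mouse 2. Of the members 6 kept their sign over the alternatives that tested them, all but Fosb, Junb, Egr1 and Egr3. Both mutants were compared with the same wild-type livers, so the likeness of their differences is not independent.

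Jun measured 1578, 1646 and 1565 normalized counts in Mrps12ep/ep livers, a narrow range below the lowest wild-type liver. The log2 difference was -1.04 ± 0.26 (adjusted p = 0.348, limma), and between -0.69 and -1.31 when 1 mouse was left out. Fos measured 147, 126 and 124 (log2 difference -0.86 ± 0.26, adjusted p = 0.433, limma). Egr2 measured 10.2, 14.5 and 17.8, against 53.9, 21 and 61.1 in wild-type livers (log2 difference -1.51 ± 0.76, adjusted p = 0.546, limma). These low counts carry a wide error. Ier2 measured 858, 885 and 992, above all wild-type livers (log2 difference 0.49 ± 0.21, adjusted p = 0.496, limma).

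Nr4a1 measured 321, 197 and 202 normalized counts in Mrps12ep/ep livers (log2 difference -0.76 ± 0.40, adjusted p = 0.558, limma, and -1.06 to -0.24 with 1 mouse left out). Dusp1 measured 6994, 3656 and 3660 (log2 difference -0.39 ± 0.35, adjusted p = 0.722, limma, and -0.71 to -0.035 with 1 mouse left out). Both overlapped wild type. Junb, Egr1, Fosb and Egr3 overlapped it too.

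Between the mutant livers, Dusp1 was lower in all Mrps12ha/ha than in all Mrps12ep/ep livers. The log2 difference was -0.87 ± 0.35 (adjusted p = 0.548, limma). Jun was higher in all Mrps12ha/ha livers than in all Mrps12ep/ep livers (log2 difference 0.35 ± 0.26, adjusted p = 0.763, limma). Egr2 differed by 0.86 ± 0.76 (adjusted p = 0.813, limma) through Mrps12ha/ha mouse 1 alone, and the difference was -0.07 without it. Of the 10 members 0 were called (0.00653% of all genes). Without overlap, 1 member was lower (9.01%) and 1 higher (8.82%), and at an unadjusted p under 0.05, 1 was lower (4.45%) and 0 higher (4.17%). The counts without overlap were near the background.

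Other transcripts differed between the livers as well. The summed hepatocyte list was lower in all wild-type livers (4544762 to 5244511 normalized counts) than in all Mrps12ep/ep (5530777 to 6032402) and Mrps12ha/ha livers (5297668 to 6023789). Most of this sum was Alb, with a median of 4148208 over the livers. By gene, 4 of the 6 were higher in Mrps12ep/ep and 5 in Mrps12ha/ha livers. In each mutant 1 of the 6 was higher without overlap (6.49% and 10.0% of all genes), and 0 had an unadjusted p under 0.05 from limma. Skeletal muscle transcripts stood at 21938 and 27559 in wild-type livers 1 and 2 and at most at 214 in the others. Cardiomyocyte transcripts stood at 6612 in Mrps12ha/ha liver 3 and between 39.0 and 481 in the others. Erythroid transcripts stood at 183944 in Mrps12ha/ha liver 1 and between 44743 and 96634 in the others. The adipocyte list was between 788 and 8188 in wild-type livers and between 228 and 1504 in those of the mutants. The macrophage (9739 to 23854) and neutrophil (85 to 486) lists in wild-type livers spanned those of both mutants. The part of these transcripts in the differences was not tested.

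Other early response genes, a list of 46 chosen by name, had mostly negative differences in the mutants, and none passed the test with all mice. In Mrps12ha/ha livers 32 of the 41 tested lay below 0, with a median of -0.59 on the log2 scale, and 14 were lower (7.05% of all genes) and 5 higher (7.07%) at an unadjusted p under 0.05. With 1 mouse left out 0 to 2 were called, beside 0 to 90 of the 15314 genes tested. Gadd45g, a stress-induced gene of growth arrest, measured 5121, 4083 and 6710 normalized counts in wild-type and 1347, 354 and 513 in Mrps12ha/ha livers (log2 difference -3.05 ± 0.54, adjusted p = 0.0963, limma). Sik1, a cyclic AMP-induced kinase that restrains CREB coactivators, had a log2 difference of -1.72 ± 0.46 there (adjusted p = 0.169, limma). In Mrps12ep/ep livers 29 of 41 lay below 0 (median -0.33), with 7 lower (5.12% of all genes) and 1 higher (4.62%) at an unadjusted p under 0.05. Spry4, an inhibitor of growth factor signals to ERK, measured 882, 932 and 1147, against 380, 454 and 299 in wild type (log2 difference 1.39 ± 0.23, adjusted p = 0.151, limma), and Dusp5, a nuclear ERK phosphatase, was at -1.32 ± 0.33 (adjusted p = 0.358, limma). In Mrps12ha/ha livers Spry4, named there after its values were seen, measured 878, 1610 and 1262, also above all wild-type livers (log2 difference 1.70 ± 0.23, adjusted p = 0.0584, limma), the lowest adjusted p of the list there.

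In Mrps12ha/ha hearts 31 of the 42 other early genes tested lay below 0 (median -0.30), with 12 lower (10.1% of all genes) and 4 higher (9.64%) at an unadjusted p under 0.05. The stress transcription factor gene Atf3 measured 708, 741 and 919 normalized counts in wild-type and 214, 326 and 284 in Mrps12ha/ha hearts (log2 difference -1.53 ± 0.23, adjusted p = 0.0935, limma). Sik1 measured 4370, 4239 and 4988 against 1338, 1459 and 2262 (log2 difference -1.46 ± 0.20, adjusted p = 0.0656, limma). Neither overlapped wild type. In Mrps12ep/ep hearts 33 of 42 lay below 0 (median -0.17), led by Atf3 (-0.65 ± 0.23, adjusted p = 1.0, limma) and Csrnp1 (-0.64 ± 0.28, adjusted p = 1.0, limma). In Mrps12ha/ha hearts 13 of the 42 were called without Mrps12ha/ha mouse 2, beside 27% of all genes, and 18 with library weights, beside 34.7%.

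Regulators of these genes, 22 tested members of a list of SRF partners, CREB family genes and MAP kinases, had differences of both signs, and with all mice at equal weight 0 were called in any comparison with wild type. In Mrps12ha/ha hearts 4 were higher and 6 lower at an unadjusted p under 0.05 (9.64% and 10.1% of all genes). There 16 were called without Mrps12ha/ha mouse 2 (27% of all genes) and 17 with library weights (34.7%). Their median differences were -0.16 in Mrps12ha/ha and 0.03 in Mrps12ep/ep hearts, and -0.10 and -0.01 in the livers. In Mrps12ha/ha hearts Srf was at -0.58 ± 0.24 (adjusted p = 0.231, limma) and Atf1 at -0.53 ± 0.23 (adjusted p = 0.243, limma). In Mrps12ep/ep hearts Rps6ka1 (0.26) and Elk3 (0.22) differed most. Mrtfa, a coactivator of SRF, measured 780, 547 and 827 normalized counts in wild-type livers and 419, 416 and 417 in those of Mrps12ha/ha mice (log2 difference -0.76 ± 0.16, adjusted p = 0.119, limma). It was called without wild-type mouse 2, where 90 of the 15314 genes tested were called. In Mrps12ep/ep livers it was at -0.39 (adjusted p = 0.491, limma). Elk3, an SRF partner, was at 0.75 and 0.51 in these livers (adjusted p = 0.331 and 0.608, limma).

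Heat shock genes, 7 in number, are induced by stress through another route, the factor HSF1, and with all mice at equal weight 0 were called in any comparison with wild type. In Mrps12ha/ha hearts 4 of the 7 were called without Mrps12ha/ha mouse 2 (27% of all genes) and 4 of the 7 with library weights (34.7%). Their median difference was -0.68 in Mrps12ha/ha hearts and -0.64 in Mrps12ha/ha livers, and 0.23 and 0.14 in Mrps12ep/ep hearts and livers. Hspa1b and Hspa1a, the inducible HSP70 genes, were at -2.04 ± 0.57 and -1.89 ± 0.54 in Mrps12ha/ha hearts (adjusted p = 0.194 and 0.199, limma), and at -1.08 and -1.49 in the livers (adjusted p = 0.337 and 0.238, limma). They are near-identical copies, so reads may be split between them. In Mrps12ep/ep hearts they were at 0.71 and 0.57, and in Mrps12ep/ep livers Hsph1 (0.48) and Hspa1b (0.37) differed most.

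**Figure D5:**
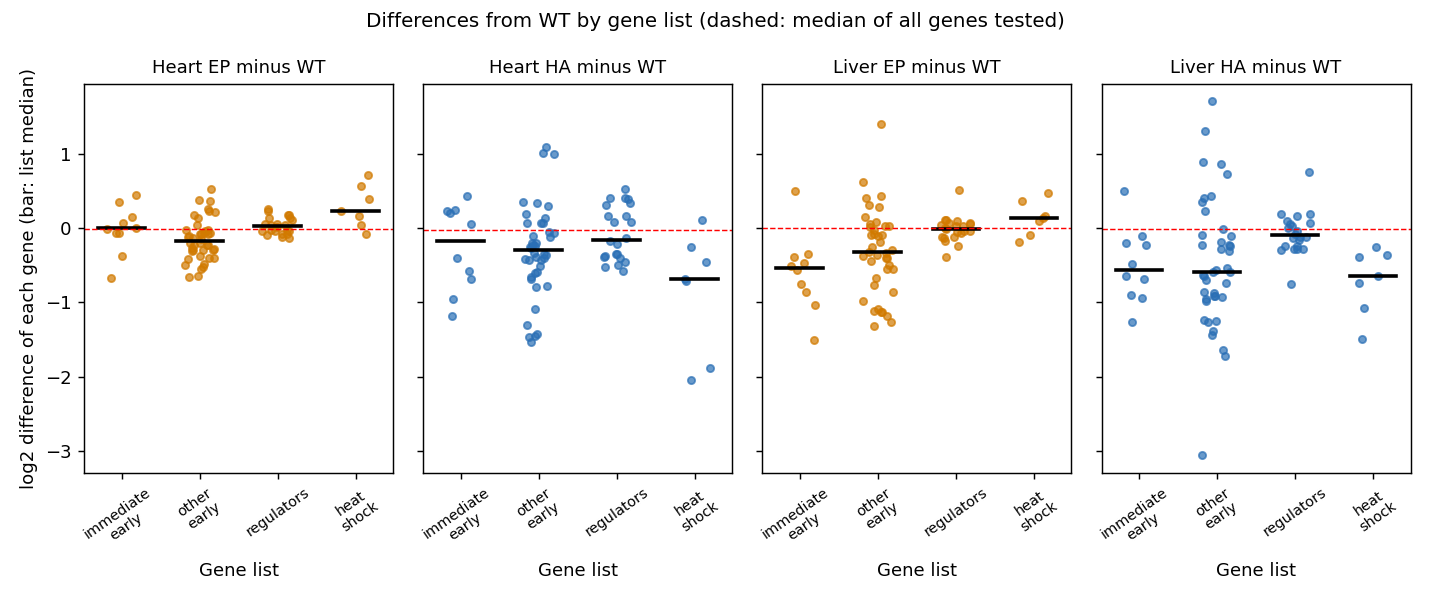
Differences from wild type on the log2(normalized count + 1) scale for each tested gene of 4 lists (points), with the list median as a bar and the median of all genes tested as a dashed line. In both tissues of both mutants the medians of both early gene lists lay below 0, that of the immediate early genes in Mrps12ep/ep hearts only at -0.006. The medians of the regulators were -0.10 in Mrps12ha/ha and -0.01 in Mrps12ep/ep livers.

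The genes whose pattern was most like the mean standardized level of the members differed between the tissues. In the liver Myc, itself an early response gene of the other list, was the most alike over the 9 mice (Pearson r = 0.976, Spearman rho = 0.996), and r was 0.988 over the 7 mice left without wild-type mice 1 and 3. Ubd (r = 0.945), Gm12840 (0.937), Tcea2 (0.930) and Nucb2 (0.928) followed, and without those 2 mice their r lay between 0.539 and 0.778. Myc measured 269, 154 and 363 normalized counts in wild-type livers, 154, 94.0 and 173 in Mrps12ep/ep and 136, 203 and 141 in Mrps12ha/ha livers. In the heart the 5 most alike were Greb1l (r = 0.961), Sfmbt2 (0.958), Sat2 (0.953), Ddhd1 (0.949) and Bex3 (0.938). These are the highest of all genes tested, over 9 mice that share their normalization, and are given as a description.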

How the data were processed

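RNA-seq of whole hearts and livers of 9 mice per tissue was used. The authors trimmed the reads (Trim Galore 0.4.1, cutadapt 1.18), checked them with FastQC 0.11.8, quantified genes with Salmon 1.1.0 on GENCODE vM21 (GRCm38.p6) and normalized the counts with DESeq2 for each tissue without mitochondrial transcripts. The deposited values are these normalized counts. All low values checked in each column (100.0%) were whole multiples of 1 step within 0.1, and dividing by it gave whole reads, used for depth and for a fit with limma-voom. The authors' tables of fold changes and p-values were not used.

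Log2 of the normalized count plus a pseudocount of 1 was fitted with limma 3.58.1 in R 4.3.3 (trended eBayes, the 3 genotypes of a tissue in 1 fit) for genes with a mean of at least 10, and p-values were adjusted by Benjamini-Hochberg over the genes tested (threshold 0.05). Depth bounds counting error only. The genes, lists and tests were chosen with earlier results of these data known. By rule, the 10 members are named in both tissues. From the other lists the genes with an adjusted p under 0.05 and the 2 with the largest difference from wild type per list and comparison are named, and the 5 genes most alike per tissue. Of 46 other early genes 44 and of 24 regulators 22 were found by these symbols. The script was tested on simulated data. Replicates are separate mice. Python 3.11.15 with pandas 2.3.3, numpy 2.4.6, scipy 1.17.1 and matplotlib 3.10.9 did the rest.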

Additional observations from a re-analysis of the deposited data

How the results depend on the processing

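Alternatives were a pseudocount of 0.1 or 8, no filter or a mean of at least 50, quantile normalization, only the 2 genotypes compared, library weights, the replicate block, each mouse left out, and limma-voom on whole reads, chosen after seeing the data. The planned quasi-likelihood count test was not run, and limma-voom on the recovered reads stood in for it. A difference cannot change with the filters, the replicate block, only the 2 genotypes, or a mouse left out of the genotype not compared. In those repeats the sign was fixed in advance, and only the adjusted p could move. Counting them, there were 466 repeats of the 26 member differences given with errors. Of these, 456 kept their sign and side of the threshold, 7 passed it (Jun, Nr4a1 and Ier2, in Mrps12ha/ha hearts) and 3 changed sign. The sign changes were of Fos in Mrps12ep/ep against wild-type hearts (-0.155 to 1.314 with 1 mouse left out) and Egr2 in Mrps12ha/ha against Mrps12ep/ep livers (-0.074 to 1.36). Of all 10 members, 8 kept their sign throughout in Mrps12ha/ha and 1 in Mrps12ep/ep against wild-type hearts, and 8 between the mutant hearts. In the livers these counts were 7, 6 and 2. At a mean of at least 50, Egr2, Egr3 and Fosb in the liver were not tested. With limma-voom the median of all genes reached -0.10 in Mrps12ha/ha against wild-type livers (-0.02 as reported).

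The number of members called stayed at 0 except with library weights, 3 in Mrps12ha/ha against wild-type hearts and 2 against Mrps12ep/ep hearts, and with 1 mouse left out, 0 to 1 in each of these. The members' median differences moved by less than the spread between mice, except in Mrps12ep/ep against wild-type livers, -0.949 to -0.351 with 1 mouse left out (-0.949 without wild-type mouse 2).

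Calls over all genes moved more. In Mrps12ha/ha against wild-type hearts (5) they were 5573 with library weights, 3 with the replicate block, 3 with limma-voom and 3 to 4330 with 1 mouse left out, the most without Mrps12ha/ha mouse 2. In Mrps12ha/ha against Mrps12ep/ep hearts (4) they were 6314 with weights and 3 to 3730 by mouse, the most again without that mouse. In Mrps12ep/ep against wild-type hearts (0) there was 1 with either pseudocount and with only the 2 genotypes, 2 with no filter, quantile normalization or limma-voom, 3 with weights, and 0 to 1 by mouse. In Mrps12ha/ha against wild-type livers (1) there were 0 with a pseudocount of 0.1, a mean of at least 50 or limma-voom, 3 with no filter, 4 with weights, 7 with the replicate block, and 0 to 90 by mouse, the most without wild-type mouse 2. In Mrps12ep/ep against wild-type livers (1) there were 0 with a pseudocount of 0.1, a mean of at least 50, only the 2 genotypes or limma-voom, 2 with no filter, 9 with the replicate block, and 1 to 68 by mouse, the most without wild-type mouse 3. In Mrps12ha/ha against Mrps12ep/ep livers (1) there were 18 with only the 2 genotypes, 13 with weights, 6 with the replicate block, and 0 to 11 by mouse. The cause was not tested.

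Mice with the same number deviated from their group means together in some pairs and not in others (r from -0.231 to 0.578 over genes). Not every mouse correlated best with its own number. In the heart, wild-type and Mrps12ep/ep mice went together for number 1 (r = 0.578) and number 2 (r = 0.409). The crossed pairs, wild-type 1 with Mrps12ep/ep 2 and wild-type 2 with Mrps12ep/ep 1, were at -0.593 and -0.451. Whether mice of the same number share more than it is not given in the labels and was not tested. With the replicate block 0 members were called in any comparison. Egr3 in the liver and Egr2 and Fosb in the shallowest heart rested on 4 to 22, 6 and 8 reads.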
